A study of Mus musculus with 4 samples.

Results

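The cells described here are CD8 T cells that carried many histone transcripts and few mitotic transcripts, the RNA pattern of cells copying their DNA (S phase). They were selected on their RNA. A barcode needed at least 1 UMI (1 counted RNA molecule) of Cd3e or Cd3d, at least 1 of Cd8a or Cd8b1, at least 15 UMIs over the histone genes Hist1h2ap, Hist1h2ae, Hist1h1b and Hist1h2ab, and at most 5 UMIs over the mitosis genes Ccnb2, Cdc20, Cenpa and Birc5 (the G2/M ceiling). It also had to lack Trdc, a γδ T cell receptor gene, and H2-Aa, an MHC class II gene of antigen-presenting cells. There were 242 such cells, 0.603% of the 40125 CD8 T cells by the same receptor genes and part of the 43971 barcodes that passed the quality filter. The cells came from tumor-draining lymph nodes (TdLN) of C57BL/6 mice with B16F10GP melanomas implanted on both flanks one after the other, where B16F10GP is the mouse melanoma line B16F10 expressing the glycoprotein of lymphocytic choriomeningitis virus. The nodes were sorted for CD8+ PD-1+ CD44+ cells. Control mice received no treatment (54 S phase cells), RT mice had 1 of the tumors irradiated (50 cells), αPD-L1 mice received a blocking antibody against PD-L1 (73 cells), and RT + αPD-L1 mice received both (65 cells). Sampling of treated mice was on day 7. All mice of a treatment went into 1 droplet library, which pooled 5 mice marked with hashtag antibodies, so library and treatment cannot be told apart, and mice are the replicates throughout.

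A cell that enters S phase has passed the point at which cyclin-dependent kinases free the E2F transcription factors from the retinoblastoma protein. E2F switches on genes for origin licensing, the MCM helicase, the replication fork and nucleotide synthesis, and the core histone genes are transcribed to package the new DNA. Mitotic genes such as Ccnb1 and Plk1 follow toward G2 and M. Activated CD8 T cells divide rapidly in lymph nodes, and PD-1+ cells with TCF1, the product of Tcf7, are known as the stem-like pool that proliferates when PD-1 or PD-L1 is blocked. Most replication-dependent histone mRNAs end in a stem-loop and lack a poly(A) tail, so libraries primed on poly(A) count them incompletely, and histone UMIs are a relative measure here.

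The 242 cells held a median of 38 histone UMIs (quartiles 25 and 54.75, range 15 to 148) and a median of 4 UMIs over the 4 mitosis genes. Their median depth was 15795 UMIs per cell, against 6343 UMIs in the 35590 remaining CD8 T cells, those under the histone minimum and under the ceiling. The ceiling shaped the set: of 2420 CD8 T cells with at least 15 histone UMIs, 2178 exceeded it and 242, or 10%, did not. The cells just inside and just outside the limits were compared in genes that the rule did not use. In the 22 members with 15 to 17 histone UMIs, the summed level of Mcm5, a helicase subunit, was 332 CPM (counts per 1e+06 UMIs), and in the 48 cells with 12 to 14 histone UMIs it was 357 CPM. Top2a, the topoisomerase that untangles replicated DNA, was at 361 and 318 CPM in the same cells, and Hist1h1e, a linker histone gene outside the rule, at 371 and 225 CPM. In the 130 members with 4 to 5 mitosis UMIs Mcm5 was 391 CPM, Top2a 514 CPM and Hist1h1e 733 CPM, and in the 148 cells with 6 to 7 they were 329, 532 and 632 CPM.

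Of the 242 cells, 211 carried 1 hashtag and were assigned to a mouse, 25 (10.3%) carried several hashtags and 6 carried none. Several hashtags mark droplets that held more than 1 cell, and were found on 7.76% of the remaining CD8 T cells and 11.2% of the cells over the ceiling. Between 135 and 196 barcodes were shared by each pair of libraries, and 0 of them were members in both. The number of assigned S phase cells per mouse was 3 to 34 (median 8.5). In a mouse's sum 1 UMI was thus worth 1.87 to 27.0 CPM (median 7.75), and genes of low level were at 0 in some mice. Summed markers of other cell types were lower than in the remaining cells in the median over mice, except those of dendritic cells and monocytes. The summed level of 9 B cell markers was 215 CPM (median of 20 mice, range 84.8 to 522) against 292 CPM in the remaining cells, with Ms4a1 and Ebf1 among those at 0. The most abundant of them in the mean was Ighm, at 139.8 against 170.9 CPM. The sum of 10 dendritic cell and monocyte markers was 129 CPM (78.9 to 264) against 109 CPM, with Csf1r and Siglech at 0. Its most abundant member, Cst3, was at 111 against 84.6 CPM in the mean, higher in 16 of 20 mice. The sum of 8 NK and γδ T cell markers was 2.99 CPM (0 to 91.5) against 15.1 CPM, that of 4 CD4 and regulatory T cell markers 11.4 CPM (0 to 84.6) against 18.2 CPM, and 5 of 6 melanoma markers were at 0.

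The label was checked on the markers. Hist1h2ap and Hist1h2ae, which encode H2A, and Hist1h1b, the linker histone H1.5, chose the cells, so their levels are a description. Summed over all members, Hist1h2ap was at 689.9 CPM, Hist1h2ae at 1053 CPM, Hist1h1b at 844 CPM and Hist1h2ab at 301 CPM, against 24.8, 36.99, 33.4 and 22.6 CPM in the remaining cells. Esco2 (chr14:65819038-65833994), the acetyltransferase that fixes cohesin behind the fork, and Top2a (chr11:98992943-99024189), both on the minus strand of mm10, were not in the rule. Esco2 had a UMI in 178 of 242 members (73.6%) and was at 97.98 CPM, against 2.68 CPM in the remaining cells. Top2a had a UMI in 238 members (98.3%) and was at 456 against 39.6 CPM. The 2 markers free of the rule, Esco2 and Top2a, thus did not go against the label. They do not tell members from other cycling cells, since both were higher still in the cells over the ceiling given next. Cells with at least 15 histone UMIs over the ceiling carried the same markers at 906 CPM (Hist1h2ap), 154 CPM (Esco2) and 843 CPM (Top2a), so the rule holds part of the cells with S phase RNA, not all of them. Those cells were also at 634 CPM for Ube2c and 206 CPM for Cenpf, mitotic genes that were not in the rule and were at 66.03 and 23.96 CPM in the members.

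Among members, the cells with 0 to 2 mitosis UMIs (n = 75, median 13913 UMIs) and those with 3 to 5 (n = 167, median 16480 UMIs) had Mcm5 at 385 and 398 CPM and the origin licensing factor Cdc6 at 97.1 and 96.5 CPM. Later genes differed more: Top2a was at 388 and 482 CPM, the cyclin A gene Ccna2 at 116 and 159.7 CPM, and Cdk1, the kinase that drives mitosis, at 80.4 and 102 CPM. Mcm5 and Cdc6 were thus at similar levels across the range of mitosis UMIs that the rule allowed. The 3 later genes were lower in the cells with the fewest, a direction that a split on mitosis UMIs favors. Hist1h1e (601 and 717 CPM) and Esco2 (87.3 and 102 CPM) were lower in those cells too, whereas E2f1 (92.2 and 89.9 CPM) and Ccne1 (83.4 and 75.3 CPM) were not. Split by histone UMIs, the 119 cells with 15 to 37 and the 123 cells with 38 or more had Hist1h1e at 456 and 881 CPM. Rrm2, a subunit of ribonucleotide reductase, was at 463 and 581 CPM, and Ung, which removes uracil from DNA, at 112 and 99.6 CPM. These are sums over cells of all mice and carry no test.

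The level of every gene was then set against that in the remaining CD8 T cells of the same mouse. Because the rule used this contrast, the values are descriptions without a test: the median over 20 mice of the log2 ratio of CPM (2 CPM added to each), with its lowest and highest mouse. A gene is called at least 2-fold higher or lower where the median passed 2-fold and at least 15 of 20 mice lay on that side. Of 6308 genes at 20 CPM or more in either set, 473 (7.5%) were higher and 262 (4.15%) lower, and the median gene was at -0.06. The ratio of mean CPM was also at least 2-fold for 463 of the 473 higher genes, but for 135 of the 262 lower genes, so mean levels are printed beside the ratios below.

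Histone genes outside the rule were higher as a family than in the remaining cells. Of 59 other replication-dependent histone genes, 39 reached 20 CPM in either set and all 39 were at least 2-fold higher, with a median log2 ratio of 2.63. The floor of 20 CPM favors that direction, since 34 of the 39 reached it in S phase cells alone. Over the whole list, 57 of 59 had a higher mean CPM in S phase cells and 2 a lower one. Hist1h1e was at 654 ± 228 CPM in S phase cells and 82.6 ± 16.5 CPM in the remaining cells (mean ± SD, n = 20 mice), a median log2 ratio of 2.87 (lowest 2.02, highest 3.92). Hist1h1d was at 312 against 22.3 CPM (3.77) and Hist1h1a at 213 against 10.03 CPM (4.09), both linker histones, and the H2A gene Hist1h2ao was at 111 against 3.86 CPM (4.18). The replacement histones, which are made throughout the cell cycle, differed less: 3 of 8 were at least 2-fold higher, H2afz at 2058 against 596 CPM (1.78), H2afx at 319.8 against 72.6 CPM (1.98) and H2afv (1.12), whereas H3f3a and H3f3b, both encoding H3.3, were at 0.29 and 0.17. Histone genes of the same cluster are close copies, so UMIs can be split among them.

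Genes that load and start the replicative helicase were higher too. Of 22 origin licensing and helicase genes, all measured, 18 were at least 2-fold higher (median 2.09). The floor of 20 CPM was reached in S phase cells alone by 9 of them, and of the 13 that reached it in both sets 10 were higher. Mcm6 was at 539.6 ± 80.4 CPM in S phase cells and 130.1 ± 10.4 CPM in the remaining cells, Mcm3 at 462 against 90.3 CPM and Mcm5 at 375 against 61.7 CPM, all subunits of the MCM helicase, with medians of 2.01, 2.39 and 2.57. Mcm5 was higher in 20 of 20 mice, from 2.13 to 2.89. The largest ratios were those of Cdc6, which loads the helicase, at 101 against 7.32 CPM (3.38), and Mcm10, which helps to fire origins, at 51.99 against 3.37 CPM (3.19). At the fork, 31 of 33 genes were at least 2-fold higher (median 2.14). The floor was reached in S phase cells alone by 11 of these, and of the 22 that reached it in both sets 20 were higher. Pclaf, which binds the sliding clamp PCNA, was at 938 ± 140.1 CPM in S phase cells and 34.3 ± 8.49 CPM in the remaining cells, a median log2 ratio of 4.61 (lowest 4.13, highest 5.53), the largest median of the genes outside the rule that were higher in all 20 mice. Pcna itself was at 405 against 80.99 CPM (2.34), the ligase gene Lig1 at 315 against 31.02 CPM (3.32) and the checkpoint mediator Clspn at 202 against 11.1 CPM (3.83).

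Nucleotide supply was uneven. Of 21 measured genes, 11 were at least 2-fold higher (median 1.12) and 1, Samhd1, which degrades dNTPs, was lower (-1.04, 130.1 against 287 CPM). Rrm2 was at 532 ± 106 CPM in S phase cells and 19.01 ± 4.31 CPM in the remaining cells, a median log2 ratio of 4.52 (lowest 3.98, highest 5.25), and thymidine kinase Tk1 at 227 against 16.7 CPM (3.67). Dut, which removes dUTP, was at 672 against 122 CPM (2.43), and Nme1, a nucleoside diphosphate kinase, at 404 against 291 CPM (0.46). Of 17 genes for chromatin assembly and the upkeep of DNA methylation, 14 were at least 2-fold higher (median 1.63). Asf1b, a histone chaperone, was at 239.9 against 17.2 CPM (3.69). Uhrf1, which guides the maintenance DNA methyltransferase, was at 299.7 against 25.9 CPM (3.39), and Slbp, which binds the stem-loop of histone mRNAs, at 431 against 93.3 CPM (2.16). Cohesion genes were split, with 5 of 12 higher (median 0.78). Esco2 was at 109 ± 44.7 CPM in S phase cells and 2.75 ± 1.22 CPM in the remaining cells, a median log2 ratio of 4.48 (lowest 3.35, highest 5.43), and Cdca5, encoding sororin, at 62.2 against 3.12 CPM (3.46), whereas the ring subunits Smc1a, Smc3 and Rad21 were at 1.17, 1.03 and 0.78. Of 22 genes of fork protection and recombination repair, 20 were higher (median 2.29), with Ung, a uracil-DNA glycosylase, at 107 against 26.8 CPM (2.07). The floor of 20 CPM favors that direction, since 18 of the 22 reached it in S phase cells alone. The 4 that reached it in both sets were higher, and 28 of 28 listed had a higher mean CPM. Of the genes at the floor in both sets, 7 of 17 for nucleotide supply, 11 of 13 for chromatin and 2 of 9 for cohesion were higher.

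Regulators of the cycle were higher as well, also those of its later part. Of 22 E2F and S phase cyclin genes, 18 were at least 2-fold higher (median 2.17). The floor of 20 CPM favors that direction, since 15 of the 22 reached it in S phase cells alone. Of the 7 that reached it in both sets, 3 were higher, and over the whole list 23 of 24 had a higher mean CPM. Mybl2, a transcription factor that carries E2F output toward mitosis, was at 82.5 against 3.56 CPM (3.97), Ccna2 at 145 against 8.22 CPM (3.87), the E2F partner Tfdp1 at 203 against 56.5 CPM (1.88), and Cks1b, a CDK-binding subunit, at 193 against 29.5 CPM (2.59). Of 37 mitosis genes outside the rule, 35 were higher than in the remaining cells (median 2.68). The floor favors that direction here too, since 30 of the 37 reached it in S phase cells alone. Of the 7 that reached it in both sets, 5 were higher, and over the whole list 39 of 40 had a higher mean CPM. Top2a was at 467 against 39.8 CPM (3.48), Mki67, encoding the proliferation marker Ki-67, at 389 against 34.8 CPM (3.36), and the Aurora B kinase gene Aurkb at 107 against 5.92 CPM (3.82). By contrast, growth genes of G1 and the MYC programme were near the median of all genes (median 0.14, 1 of 21 higher and 1 lower). Ran, a GTPase of nuclear transport and the spindle, was at 1078 against 502 CPM (1.09), Ccnd2, the cyclin D2 gene, at 98.5 against 201 CPM (-1.04), and Npm1, a nucleolar chaperone, at 0.14.

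**Figure D1:**
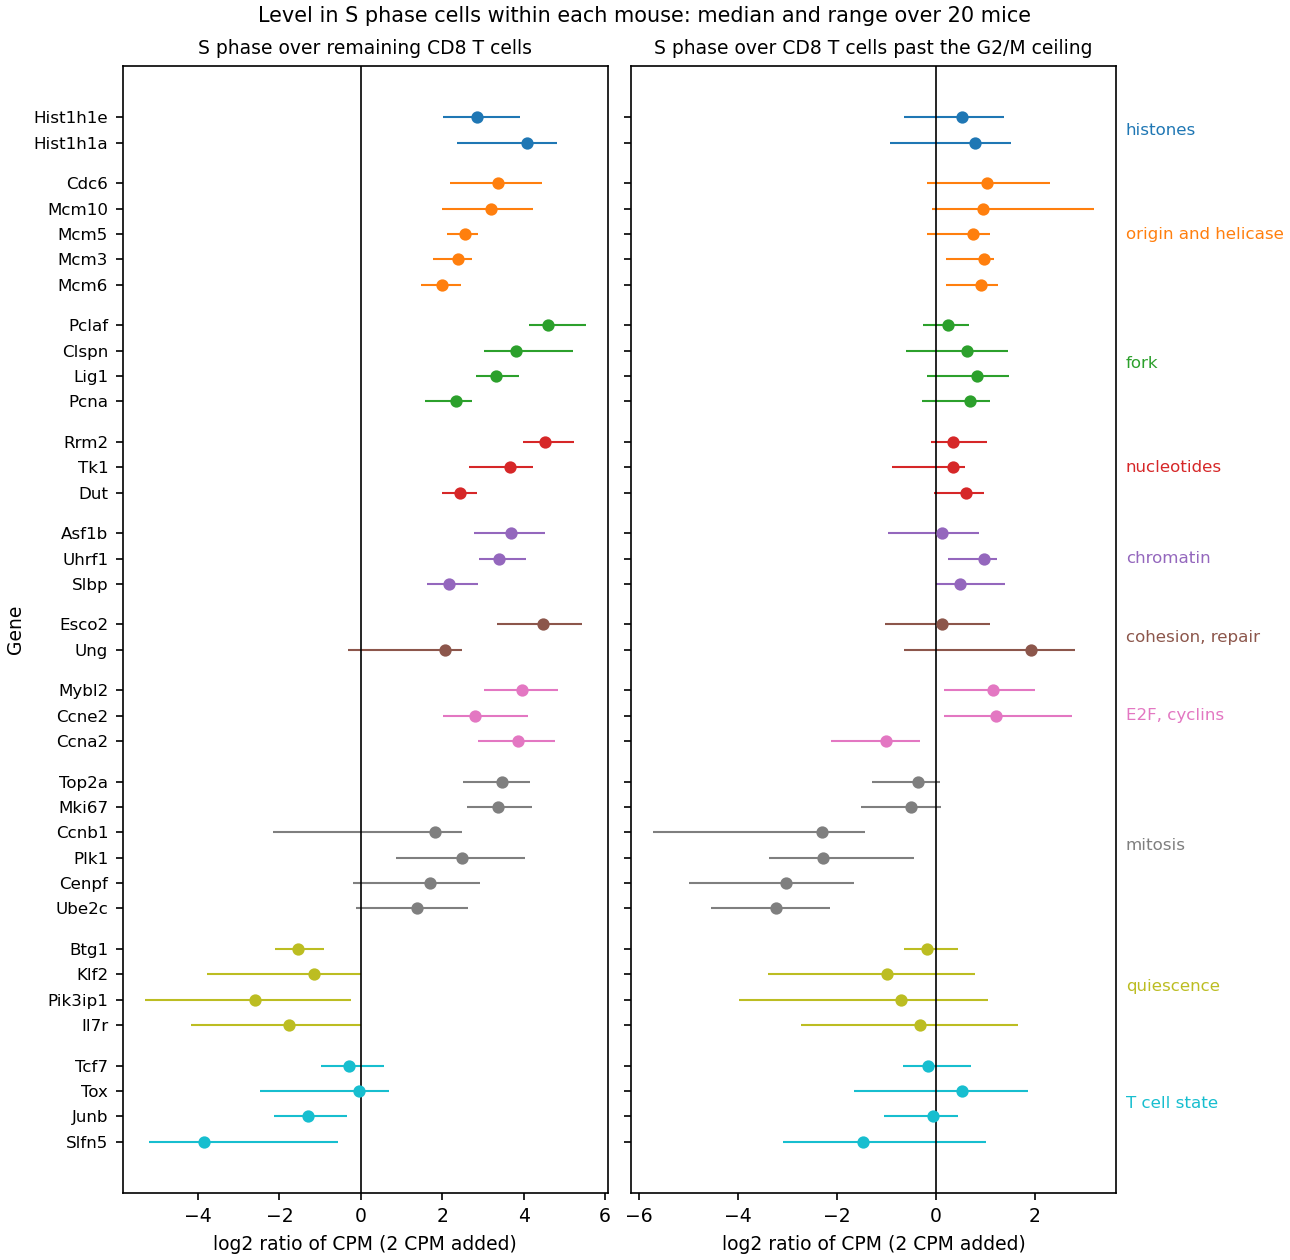
Median (point) and range (line) over 20 mice of the log2 ratio of CPM, 2 CPM added, in S phase cells over the remaining CD8 T cells (left) and over CD8 T cells above the G2/M ceiling (right), for genes grouped by role. Replication genes such as Rrm2 (4.52) and Mcm5 (2.57) lie right of 0 in the left panel, and Ube2c (-3.23) and Cenpf (-3.02) lie left of 0 in the right panel.

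Against the 4293 CD8 T cells over the ceiling, the members differed in few genes. Of 6004 genes, 30 (0.5%) were at least 2-fold higher and 117 (1.95%) lower, by the same description and again without a test, and the median gene was at -0.01. The mean CPM was also at least 2-fold higher for 26 of the 30 and lower for 70 of the 117. The largest median among genes higher in all 20 mice was that of Srm, spermidine synthase, at 129 against 38.3 CPM, a median log2 ratio of 1.59 (lowest 0.25, highest 4.72). Ccne2, the cyclin E2 gene of the G1 to S step, was at 33.6 against 13.4 CPM (1.22), Mybl2 at 82.5 against 36.2 CPM (1.15), the phosphatase gene Cdc25a at 76.1 against 31.01 CPM (1.03), and Hells, a chromatin remodeler needed for DNA methylation, at 243 against 119 CPM (1.03). Apex1, a base excision repair nuclease, was at 1.15 and Pole, the leading-strand polymerase, at 0.93. Few replication genes passed 2-fold here, 1 of 22 for licensing and the helicase (Cdc6) and 1 of 33 for the fork (Rfc3), with list medians of 0.68 and 0.67. Ung was at 107 against 29.1 CPM (1.91). The other replication-dependent histones were level with those of the cells over the ceiling, 0 of 39 passing 2-fold either way (median 0.16). The cells over the ceiling include 2115 with under 15 UMIs of the rule histones.

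Of 40 mitosis genes outside the rule, 21 were at least 2-fold lower in the members than over the ceiling (median -1.03), a direction the ceiling favors, since it was set on mitosis genes. Ube2c, the ubiquitin-conjugating enzyme of the anaphase-promoting complex, was at 61.5 against 554 CPM (-3.23), the kinetochore gene Cenpf at 25.2 against 204 CPM (-3.02), cyclin B1 (Ccnb1) at 20.3 against 115 CPM (-2.31), and Plk1, the mitotic kinase, at 27.9 against 119 CPM (-2.29). Cdkn3, a phosphatase acting on CDKs, was at 9.22 against 84.3 CPM (-3.44). Ccna2 was lower too, at 145 against 288 CPM (-1.02), whereas Top2a (-0.36), Mki67 (-0.51) and Aurkb (-0.33) differed by less than 2-fold.

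The promoters of these genes were read in RefSeq (GRCm38.p6, the assembly of the mm10 reference used for the counts), from 250 bases before to 50 after the start, for 381 of the 473 higher genes. The letters TTTCCCGC or TTTGGCGC, forms of the E2F site, were searched on both strands. They occurred in 57 of those 381 promoters (14.96%), in 227 of 5086 promoters of measured genes (4.46%), in 1.80% of all 27025 promoters, and in 1 of 202 promoters of the lower genes (0.495%). They were in 8 of 17 licensing and helicase promoters (47.1%) and 8 of 27 fork promoters (29.6%), but in 1 of 51 histone promoters (1.96%). The 5 sites below lie before the starts of genes named above and are shown because these letters were more frequent in promoters of replication genes than in those of histone genes. Each is read 5′ to 3′ on the strand of its gene, and capitals mark the match.
Mcm5, plus strand, chr8:75109349-75109378: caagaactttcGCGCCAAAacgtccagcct
Mcm6, minus strand, chr1:128359734-128359763: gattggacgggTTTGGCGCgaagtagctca
Cdc6, plus strand, chr11:98908002-98908031: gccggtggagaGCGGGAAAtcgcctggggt
Pclaf, plus strand, chr9:65890307-65890336: gcttggagcgcGCGGGAAAgagacccattt
Hells, plus strand, chr19:38930917-38930946: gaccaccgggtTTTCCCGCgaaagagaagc
The matches began 149 bases before the start in Mcm5, 47 in Mcm6, 138 in Cdc6, 5 in Pclaf and 62 in Hells. The promoters of Pcna, Rrm2, Ung, Slbp, Clspn, Uhrf1 and Top2a did not hold these letters in the window, although their genes were higher in the members.

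Histone promoters shared other letters. CCAAT (either strand) was in 43 of 51 promoters of replication-dependent histones (84.3%), in 62.7% of the promoters of genes higher in S phase cells, in 43.3% of the promoters of measured genes and in 41.1% of all promoters. TATAAA was in 30 of 51 histone promoters (58.8%), in 10.2% of the promoters of the higher genes, in 8.49% of the promoters of measured genes and in 15.7% of all. The 4 histone genes of the rule lie in the large histone cluster on chromosome 13, and their CCAAT matches are shown because these genes chose the cells.
Hist1h2ap, minus strand, chr13:21833557-21833586: gaagaagtcagCCAATcgcataggcccttt
Hist1h2ae, minus strand, chr13:23571208-23571237: gatagttttaaCCAATcacacatcagcttt
Hist1h2ab, plus strand, chr13:23750999-23751028: cgatatattaaCCAATgggagaaacacaaa
Hist1h1b, minus strand, chr13:21780660-21780689: tggccgctccaCCAATcacagcccagcacc
A TATAAA match followed at 28 bases before the start in Hist1h1b and at 41 in Hist1h2ab.
Hist1h1b, minus strand, chr13:21780635-21780664: gcaccggcttaTATAAAccaggagcctgag
Hist1h2ab, plus strand, chr13:23751036-23751065: cctccagttagTATAAAtgcttgctgttca
Hist1h2ap held no TATAAA match in the window, and Hist1h2ae held 1, on the opposite strand at 142 bases before the start. Matches are descriptions of sequence, and binding was not measured.

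Genes of quiescence were lower in the members than in the remaining cells. Of 19 measured, 10 were at least 2-fold lower (9 of them also in the mean) and 1 was higher (median -1.09). Btg1, an antiproliferative factor, was at 227 ± 65.8 CPM in S phase cells and 656 ± 36.6 CPM in the remaining cells, a median log2 ratio of -1.54 (lowest -2.11, highest -0.89). Klf2, which keeps T cells quiescent and recirculating, was at 222 against 487 CPM (-1.14), and Pik3ip1, an inhibitor of PI3K, at 16.7 against 70.6 CPM (-2.61). The 1 higher member of the list was Cdkn2c, which encodes a CDK inhibitor, p18, at 33.03 against 8.26 CPM (1.96). Klf2 was also -0.99 against the cells over the ceiling, where Btg1 was -0.19. The early-response genes Junb (561 against 1354 CPM, -1.30) and Jun (70.8 against 192 CPM, -1.52), subunits of AP-1, were lower than in the remaining cells and near those of the cells over the ceiling (-0.07 and -0.65). Over the activation list, 4 of 19 were lower and 0 higher, 2 of the 4 also in the mean.

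Naive and stem-like genes were mostly lower in the members than in the remaining cells, though fewer passed 2-fold. Of 15 measured, 6 were at least 2-fold lower (4 of them in the mean) and 0 higher (median -0.85). Of the 13 that reached the floor of 20 CPM in both sets 4 were lower, and 2 reached it in the remaining cells alone. Over the whole list, 15 of 16 had a lower mean CPM in S phase cells and 1 a higher one. Tcf7 was lower by less than 2-fold, at 456 ± 128 CPM in S phase cells and 537 ± 26.1 CPM in the remaining cells. Its median log2 ratio was -0.30 (lowest -0.98, highest 0.58), with 17 mice lower and 3 higher. The homing receptor Ccr7 was at 242 against 341 CPM (-0.59), and Il7r, the IL-7 receptor, at 62.9 against 193 CPM (-1.76). Because members were deeper, shares of cells with a UMI were compared after each cell was thinned to 4000 UMIs, which kept 236 members and 29413 remaining cells. Tcf7 then had a UMI in 72.5% (exact binomial interval 66.3 to 78.1%) of S phase cells and 81.8% of the remaining cells, and Il7r in 22.03% (exact binomial interval 16.9 to 27.9%) of S phase cells and 40.3% of the remaining cells. Unthinned, the shares were 90.1% and 88.5% for Tcf7 and 43.4% and 50.7% for Il7r. The B cell gene Cd79a, which CD8 T cells should lack, had a UMI in 0.424% of thinned members and 0.377% of thinned remaining cells. Mki67 had one in 77.97% (exact binomial interval 72.1 to 83.1%) of S phase cells and 7.31% of the remaining cells. Intervals cover counting error only.

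Effector genes gave different values by the median over mice and by the mean. Of 17 effector genes, 7 were at least 2-fold lower by the median over mice, but 2 by the mean (Ccl5 and Id2), and the list's median went from -0.69 by mouse to -0.07 by the ratio of means. Ccl5, a chemokine, was at 104 ± 234 CPM in S phase cells and 606 ± 249 CPM in the remaining cells. Gzmb, the cytotoxic protease granzyme B, was at 89.05 ± 345 CPM in S phase cells and 40.6 ± 114 CPM in the remaining cells, lower by the median over mice (-1.41) but not by the mean. RT + αPD-L1 mouse 3 held most of it. Lgals1, encoding galectin-1, was higher at 1286 against 579.6 CPM (1.06). Of 16 inhibitory and exhaustion genes, 2 were lower and 0 higher. Tox, a factor of exhausted and stem-like PD-1+ cells, was at 114 against 132 CPM (-0.06), with UMIs in 34.7% (exact binomial interval 28.7 to 41.2%) of S phase cells and 36.4% of the remaining cells after thinning. Pdcd1, encoding PD-1, was at 32.4 against 25.4 CPM (0.24), with UMIs in 13.98% (exact binomial interval 9.82 to 19.1%) of S phase cells and 7.595% of the remaining cells, while 29.3% and 12.5% had one before thinning.

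Interferon-stimulated genes were lower in the members than in the remaining cells of the same mice. Of 54 measured, 17 were at least 2-fold lower, 12 of them also in the mean, and 0 were higher (median -0.82). The floor of 20 CPM favors that direction, since 13 of the 54 reached it in the remaining cells alone, and of the 41 that reached it in both sets 9 were lower. Over the whole list, 65 of 73 had a lower mean CPM in S phase cells and 5 a higher one. Slfn5, of the Schlafen family, was at 2.37 ± 4.42 CPM in S phase cells and 48.7 ± 48.1 CPM in the remaining cells, a median log2 ratio of -3.84 (lowest -5.20, highest -0.55), the lowest median of the genes that were lower in all 20 mice. Ifit1, which binds foreign RNA, was at 6.74 against 47.4 CPM (-2.77), Ifit3b at 4.84 against 34.9 CPM (-2.10) and Tgtp1, an interferon-induced GTPase, at 11.3 against 51.7 CPM (-2.45). Abundant members of the list were nearer the other cells, with Ly6e at 1395 against 1104 CPM (0.27) and Ifi27l2a at 1079.9 against 1519 CPM (-0.53). Against the cells over the ceiling 0 of 44 passed 2-fold in either direction (median -0.28).

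The share of CD8 T cells in S phase did not differ detectably between treatments. In the mice numbered 1 to 5, S phase cells were 0.706, 0.4296, 0.789, 0.499 and 0.457% of CD8 T cells in Control. The shares were 0.376, 0.408, 0.399, 2.88 and 0.696% among RT mice, 0.644, 0.815, 0.436, 0.421 and 0.787% among αPD-L1 mice and 0.674, 0.445, 0.775, 0.407 and 0.417% among RT + αPD-L1 mice. They rest on 14, 13, 9, 3 and 8 cells of Control mice, 3, 9, 9, 4 and 21 cells of RT mice, 5, 33, 10, 9 and 6 cells of αPD-L1 mice and 3, 8, 34, 6 and 4 cells of RT + αPD-L1 mice. The groups overlapped, and 1 mouse stood out: RT mouse 4 had 4 S phase cells among 139 CD8 T cells (Wilson 95% interval 1.12 to 7.17%). Means were 0.576% ± 0.161 (SD, n = 5 mice) in Control mice, 0.951% ± 1.08 in RT mice, 0.621% ± 0.187 in αPD-L1 mice and 0.544% ± 0.1695 in RT + αPD-L1 mice.

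The difference from Control was 0.375 percentage points for RT (two-sided exact permutation test, p = 0.881), 0.0445 for αPD-L1 (exact p = 0.722) and -0.0325 for RT + αPD-L1 (exact p = 0.643). RT + αPD-L1 differed from RT by -0.408 points (exact p = 0.825) and from αPD-L1 by -0.0769 points (exact p = 0.460). All 5 Benjamini-Hochberg adjusted p values were 0.881 by the exact permutation test, and the smallest p that 5 against 5 mice allow is 0.00794. Without the ceiling, CD8 T cells with at least 15 histone UMIs averaged 5.92% of CD8 T cells in Control mice, 5.81% in RT mice, 5.17% in αPD-L1 mice and 5.40% in RT + αPD-L1 mice (n = 5 each). Each of the 5 differences changed sign under at least 1 other setting. Without RT mouse 4 the difference between RT and Control was -0.106 points, and that between RT + αPD-L1 and RT was 0.0739 points.

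**Figure D2:**
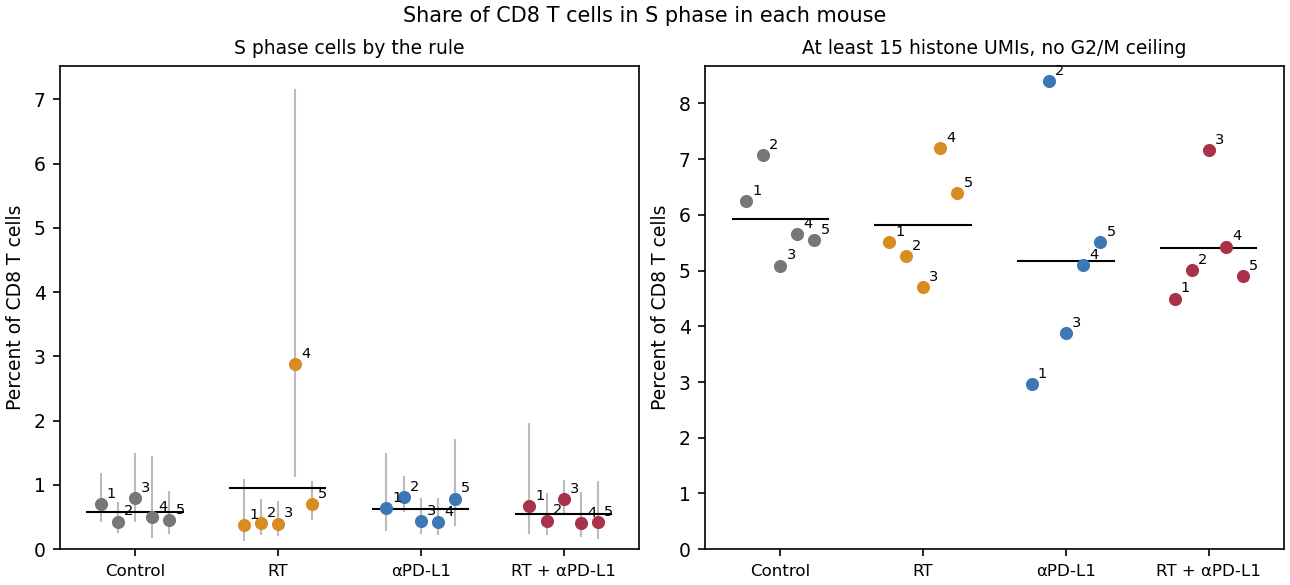
Percent of each mouse's CD8 T cells in S phase by the rule (left, with Wilson 95% intervals) and with at least 15 histone UMIs and no G2/M ceiling (right). Points are mice, numbered 1 to 5 by hashtag, and lines are group means, from 0.544% in RT + αPD-L1 to 0.951% in RT on the left.

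Gene levels were compared between treatments in the UMIs of S phase cells summed per mouse, using edgeR's quasi-likelihood test with Benjamini-Hochberg adjustment over all genes tested. Treatment was not part of the rule. The planned fit took mice with at least 10 S phase cells, which left 2 Control mice, 1 RT mouse, 2 αPD-L1 mice and 1 RT + αPD-L1 mouse (mouse 3), so that a comparison with RT or RT + αPD-L1 there is a comparison with 1 mouse, which is assumed to vary like the mice of the other groups. Its calls are therefore given as counts and sizes of change in that mouse, and say nothing of the other mice of the treatment. A fit of all 20 mice, each with at least 3 S phase cells, was added after the data were seen. It is given beside the planned one and, for RT + αPD-L1 against Control, also without mouse 3. The 20-mouse fit tested 2515 genes of 5 mice per group, and the planned fit 5538 genes.

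With all 20 mice, edgeR called 0 genes for RT and 0 for αPD-L1 against Control, with 226 and 144 of 2515 at an unadjusted p under 0.05. DESeq2 called 1 and 0, and edgeR without a filter on low counts 32 and 39. In the planned edgeR fit, where RT is mouse 5 alone, 11 of 5538 genes (0.199%) passed an adjusted p of 0.05 between RT and Control, 6 higher and 5 lower, of which 8 were T cell receptor β V genes. The other 3 were Malat1, a nuclear long noncoding RNA (log2 0.93), S100a6, a calcium-binding protein (log2 -2.20), and the integrin β1 gene Itgb1 (log2 -2.15). Between αPD-L1 mice 2 and 3 and Control 3 genes (0.0542%) passed, all V genes: Trbv29 and Trbv1 as higher and Trbv13-2 as lower. DESeq2 called 0 and 1 in the same mice.

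RT + αPD-L1 differed from Control in more genes, many of them interferon-stimulated. With all 20 mice, 11 of 2515 genes (0.437%) were higher and 0 lower by edgeR, among them Ly6a, Isg15, Zbp1, Bst2, Rnf213, Samhd1, Ifi47, Snw1, Mndal and Ms4a4b. DESeq2 called 5. Of the 73 listed interferon-stimulated genes 15 were tested and 7 of them were higher, with a median of 1.29 over the 15 and of -0.01 over all genes tested. Genes could reach the count filter through the RT + αPD-L1 mice alone, so the values of the 15 do not stand for the list. In the planned fit given below, genes could reach it through mouse 3 alone. There 55 of the 73 were tested, with a median of 2.26, and their counts do not stand for the list either. Without mouse 3 the count fell to 1 gene, Ly6a (log2 3.42 ± 0.57 SE, adjusted p = 0.00421, edgeR). Without Control mouse 1 it was 4, without RT + αPD-L1 mouse 1 it was 24, and with mice assigned by HTODemux it was 0. In the planned edgeR fit, 58 of 5538 genes (1.05%) passed as higher and 7 (0.126%) as lower in mouse 3 than in Control mice 1 and 2, 28 of the 58 being interferon-stimulated. DESeq2 called 2 in those mice, and edgeR called 0 when αPD-L1 mouse 2 was left out. Of the 11 genes of the 20-mouse fit, 10 (all but Snw1) were also called in the planned fit, which rests on the same mouse 3.

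Ly6a, encoding the surface protein Sca-1 (chr15:74994877-74998031, minus strand), had the largest change of the 11. In S phase cells it was at 38.98, 47.6, 51.6, 0 and 34.03 CPM in Control mice 1 to 5, 230.5, 50.2, 268, 0 and 62.9 CPM in RT mice, 0, 122, 109.8, 154 and 18.98 CPM in αPD-L1 mice and 26.97, 634, 1045, 454 and 408 CPM in RT + αPD-L1 mice. Mice 2 to 5 of RT + αPD-L1 exceeded all other mice, and mouse 1 lay among the Control mice. The fitted difference from Control was log2 3.93 ± 0.53 SE, adjusted p = 8.72e-05 (edgeR, 20 mice), that from RT was log2 2.39 ± 0.47 SE, adjusted p = 0.0142, and that from αPD-L1 was log2 2.64 ± 0.45 SE, adjusted p = 0.0047. Ly6a had a UMI in 55 of 65 RT + αPD-L1 members, and in 16 of 54 Control, 23 of 50 RT and 30 of 73 αPD-L1 members. These counts pool cells of all mice and carry no test. Mouse 3 supplied 34 of the 55 RT + αPD-L1 members that were assigned to a mouse. The remaining CD8 T cells ranked the RT + αPD-L1 mice in a similar way, at 114, 346, 812, 201 and 171 CPM for mice 1 to 5, against 54.98, 88.4, 88.6, 29.5 and 68.4 CPM in Control.

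Isg15, a ubiquitin-like modifier (chr4:156199424-156200818, minus strand), was at 12.99, 95.2, 7.37, 0 and 59.5 CPM in S phase cells of Control mice 1 to 5, 57.6, 14.3, 14.1, 16.96 and 14.97 CPM in RT, 13.5, 116, 7.32, 25.7 and 28.5 CPM in αPD-L1 and 0, 285, 571, 59.2 and 182 CPM in RT + αPD-L1. The RT + αPD-L1 mice overlapped the others, through mice 1 and 4, while mice 2, 3 and 5 lay above all of them. In the 20-mouse edgeR fit Isg15 was higher than in Control (log2 2.82 ± 0.57 SE, adjusted p = 0.0113) and RT (log2 3.96 ± 0.69 SE, adjusted p = 0.00829). Without mouse 3 it was log2 1.86 ± 0.67 SE, adjusted p = 0.517 against Control. Ifi47, an interferon-induced GTPase, was at 95.3, 134, 147, 99.6 and 85.1 CPM in Control and 135, 349.7, 385, 207 and 318 CPM in RT + αPD-L1, where 4 of 5 mice exceeded all Control mice (log2 1.43 ± 0.23 SE, adjusted p = 0.000932, edgeR). Bst2, or tetherin, was at 64.96, 90.9, 133, 39.8 and 76.6 CPM in Control and 135, 211, 513, 197 and 182 CPM in RT + αPD-L1, all 5 of them above the highest Control mouse (log2 1.82 ± 0.37 SE, adjusted p = 0.0113, edgeR).

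Other calls of the 20-mouse edgeR fit against Control that are named here were smaller than those of Ly6a and Isg15. The nucleic acid sensor Zbp1 (log2 1.85 ± 0.38 SE, adjusted p = 0.0121) and Rnf213, an interferon-induced ubiquitin ligase (log2 1.80 ± 0.42 SE, adjusted p = 0.0476), were higher in RT + αPD-L1 than in Control. Samhd1, which was low in S phase cells relative to the remaining cells, was higher (log2 1.67 ± 0.27 SE, adjusted p = 0.000932), and so was Mndal, of the interferon-inducible HIN-200 family (log2 1.04 ± 0.25 SE, adjusted p = 0.0496). Snw1, a splicing and transcription cofactor (log2 1.20 ± 0.24 SE, adjusted p = 0.0113), and Ms4a4b, a membrane protein of T cells (log2 0.65 ± 0.13 SE, adjusted p = 0.0113), were higher too. Against RT, 3 genes (0.119%) were higher and 0 lower: Isg15, Ly6a and Zbp1. Against αPD-L1, 2 genes (0.0795%) passed, Ly6a and Nrgn, the latter lower (log2 -3.31 ± 0.60 SE, adjusted p = 0.0076, edgeR). These calls were lost, with 0 against RT and 0 against αPD-L1, without RT + αPD-L1 mouse 3, with HTODemux and with DESeq2, and those against RT also without RT mouse 5. Nrgn, encoding neurogranin, was at 135, 162, 176, 449.8 and 152 CPM in αPD-L1 mice and 0, 16.3, 22.4, 29.6 and 22.7 CPM in RT + αPD-L1 mice. In the planned fit 41 genes (0.74%) passed as higher in mouse 3 than in RT mouse 5 and 30 (0.542%) as higher than in αPD-L1 mice 2 and 3, where DESeq2 called 2 and 1 in either direction.

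Summed over the 73 listed interferon-stimulated genes, S phase cells of Control mice 1 to 5 were at 4318, 4921, 4845, 4341 and 4781 CPM, RT mice at 7529, 5857, 5719, 3934 and 4329 CPM, αPD-L1 mice at 4401, 7321, 4661, 5513 and 4488 CPM and RT + αPD-L1 mice at 3829.7, 8768, 15104, 7877 and 8896 CPM. Mice 2 to 5 of RT + αPD-L1 were above all other mice and mouse 1 was below all of them. The remaining cells of RT + αPD-L1 mice 1 to 5 were at 6579, 16702, 21872, 10578 and 10776 CPM, again lowest in mouse 1 and highest in mouse 3, and those of Control mice at 5868, 7037, 6887, 5119 and 7633 CPM. In the remaining cells edgeR called 67 of 68 of these genes higher than in Control (median 1.37), among 769 higher and 464 lower of 11661 genes. In a sum of all histone-high CD8 T cells without the ceiling, 117 of 8717 genes (1.34%) were higher in RT + αPD-L1 than in Control. Without mouse 3 that set gave 17 higher and 4 lower, with Isg15 at 1.90 (edgeR adjusted p = 0.0393), Ifi47 at 0.71 (adjusted p = 0.0221) and Ly6a at 1.46 (adjusted p = 0.111).

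**Figure D3:**
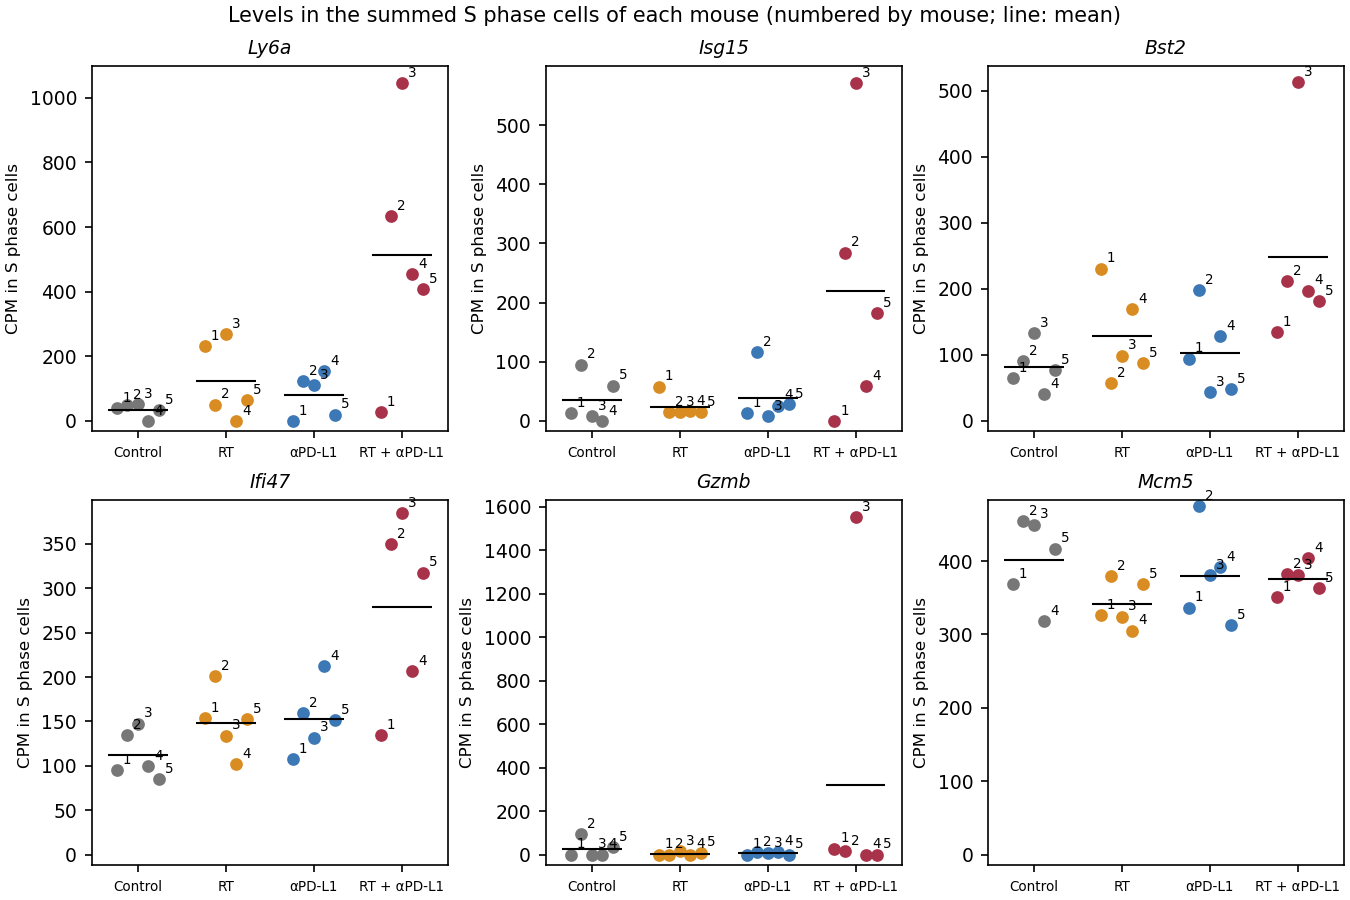
Level in CPM of 6 genes in the summed S phase cells of each mouse, by treatment, with linear axes from 0. Points are mice numbered 1 to 5 and lines are group means; Ly6a was at 408 CPM or more in RT + αPD-L1 mice 2 to 5, Gzmb was at 1553 CPM in mouse 3 alone, and the Mcm5 means lay between 341 and 402 CPM.

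In S phase cells of RT + αPD-L1 mice, most UMIs of Gzmb, Gzma and Ccl5 came from 1 mouse. Gzmb was at 26.97, 16.3, 1553, 0 and 0 CPM in S phase cells of RT + αPD-L1 mice 1 to 5, and at 0, 95.2, 0, 0 and 34.03 CPM in Control mice. Gzma, granzyme A, was at 0, 0, 1736, 19.7 and 0 CPM in the same RT + αPD-L1 mice and at 0, 0, 0, 0 and 34.03 CPM in Control. Ccl5 was at 0, 81.3, 1060.4, 0 and 68.1 CPM in RT + αPD-L1 and 8.66, 203, 44.2, 19.9 and 17.01 CPM in Control. In each of the 3 genes mouse 3 was highest by far. The zeros of Gzmb in mice 4 and 5 rest on 6 and 4 S phase cells, where 1 UMI was worth 9.86 and 22.7 CPM. In the remaining cells Gzmb was at 44.7, 42.0, 524, 25.5 and 27.4 CPM in RT + αPD-L1 mice 1 to 5. All were above the highest Control mouse (12.7 CPM). Gzma and Ccl5 overlapped between the groups there. Of 25 effector genes edgeR called 8 higher and 0 lower than in Control in these cells. Gzmb had a UMI in 27 of 65 RT + αPD-L1 members and in 3 of 54 Control, 4 of 50 RT and 5 of 73 αPD-L1 members. These counts also pool cells of all mice, with 34 RT + αPD-L1 members from mouse 3, and carry no test. In the 20-mouse edgeR fit 0 of 10 effector genes tested passed in either direction, and Gzmb was not among the genes tested there. In the planned fit, which sets mouse 3 against Control mice 1 and 2, Gzmb was at log2 5.03 and Ccl5 at log2 3.33. Effector genes could reach the count filter there through mouse 3 alone, so these values do not stand for the list. Of 14 inhibitory and exhaustion genes 2 passed as lower in that mouse, Nrn1 (log2 -3.46) and Dapl1 (log2 -1.10), and 0 as higher.

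Replication genes gave few calls. In the 20-mouse edgeR fit of RT + αPD-L1 against Control, 0 of 13 licensing and helicase genes, 0 of 29 fork genes, 0 of 22 other histone genes and 0 of 21 mitosis genes passed in either direction, where 0.437% of all genes were higher and 0 lower. Samhd1 was the 1 of 18 nucleotide supply genes that passed. Of the 22 other histone genes, 1 was above 0 in this fit (median -0.27, against -0.01 over all genes tested). In the sum without the ceiling 2 of 52 were above 0 (median -0.29), and in the remaining cells 19 of 50 passed as lower. In the planned fit, with mouse 3 alone, 21 of 40 were above 0. The cause was not tested. Of the other histone genes, 1 of 40 passed as higher in the planned fit, and 2 of 52 as lower in the sum without the ceiling, with mouse 3 and without it. Mcm5 was at 368, 454, 449.8, 319 and 417 CPM in Control mice 1 to 5 and at 351, 382, 381, 404 and 363 CPM in RT + αPD-L1 mice, overlapping ranges (log2 -0.09 ± 0.14 SE, adjusted p = 0.9996, edgeR). Pcna was log2 -0.33 ± 0.16 SE, adjusted p = 0.701, Mki67 log2 -0.23 ± 0.20 SE, adjusted p = 0.972 and Top2a log2 -0.14 ± 0.18 SE, adjusted p = 0.9996. Esco2 was at 129.9, 56.3, 118, 39.8 and 136 CPM in Control and 216, 114, 80.3, 158 and 182 CPM in RT + αPD-L1 (log2 0.27 ± 0.29 SE, adjusted p = 0.9996, edgeR). Of the T cell state genes, Tcf7 was log2 -0.17 ± 0.21 SE, adjusted p = 0.9996 and Tox log2 -0.88 ± 0.35 SE, adjusted p = 0.484 in the same fit, and 0 of 10 naive and stem-like genes passed. Standard errors from 0.14 (Mcm5) to 0.35 (Tox) set the size of change that could have been missed.

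**Figure D4:**
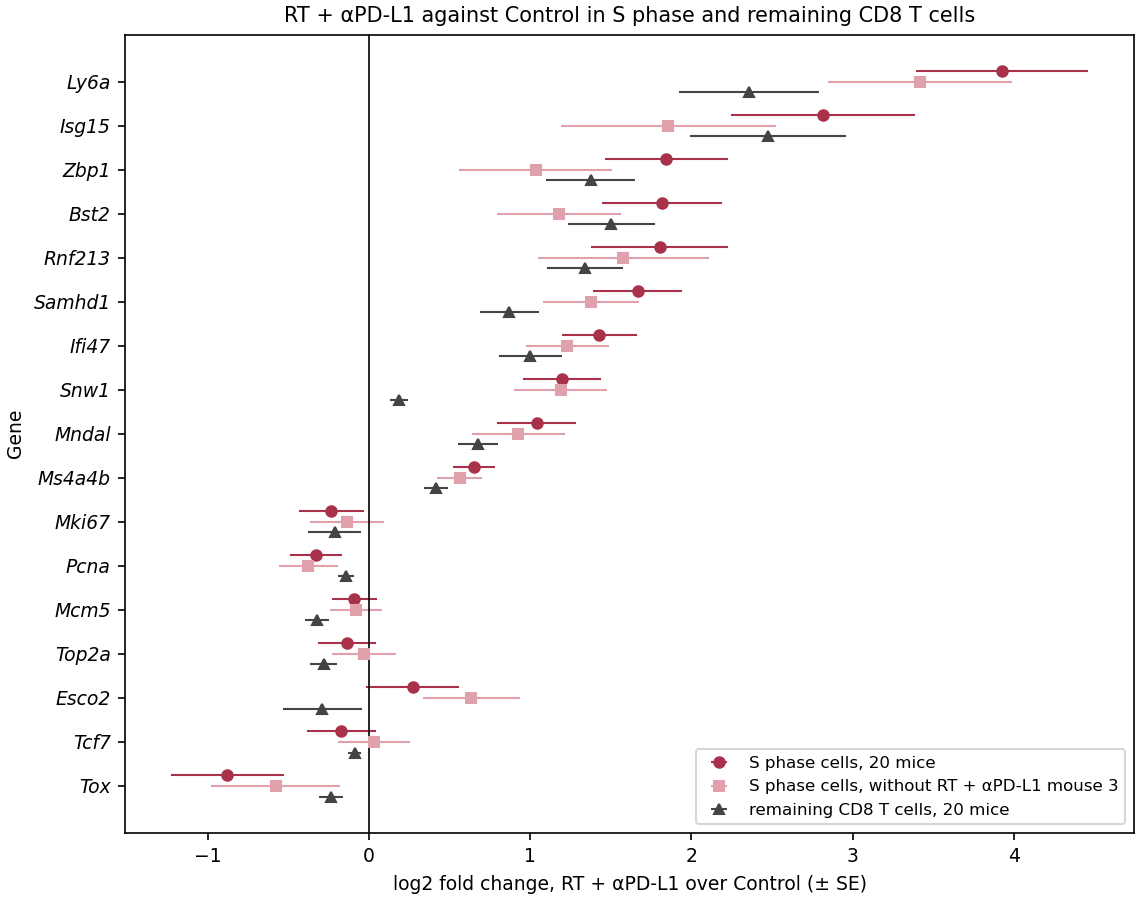
log2 fold change (± SE, edgeR) of RT + αPD-L1 over Control in S phase cells of 20 mice, in the same cells without RT + αPD-L1 mouse 3, and in the remaining CD8 T cells. The called genes shown lie right of 0, from Ly6a (3.93) to Ms4a4b (0.65), and Mki67, Pcna, Mcm5 and Top2a lie near 0, at -0.23, -0.33, -0.09 and -0.14.

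Whether the change from Control to RT + αPD-L1 differed between S phase cells and the remaining cells was tested as the difference of the 2 changes within mice. With all 20 mice edgeR called 0 of 8453 genes (337 at an unadjusted p under 0.05) and DESeq2 called 0, and 0 of 62 interferon-stimulated genes tested passed. The count was 0 to 3 when single mice were left out. The difference for Ly6a was log2 1.48 ± 0.41 SE, adjusted p = 0.767. A larger response of interferon-stimulated genes in S phase cells than in the remaining cells was thus not detectable with these cell numbers, which does not show that the responses were equal. In the planned edgeR fit, where RT + αPD-L1 is mouse 3 alone, 22 of 12537 genes (0.175%) passed, 12 with a positive and 10 with a negative difference (S phase minus remaining cells), and DESeq2 called 1. T cell receptor V genes made up 12 of the 22. Ccl5 had a positive difference in that mouse (log2 1.74), and Pdcd1 (log2 -1.67), Nrn1 (log2 -2.30), Cxcl10, an interferon-induced chemokine (log2 -2.76), and Itgb1 (log2 -1.45) a negative one.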

How the data were processed

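Droplet RNA libraries of sorted TdLN cells were analyzed, 1 per treatment. The files deposited by the authors hold raw UMI counts, both of genes and of hashtags, per barcode. They were made with Cell Ranger (6.1.2 per the file headers, another version in the methods) and the mm10 reference. The labels name a 3′ kit, while the stated hashtag reagents are normally read with 5′ kits. The quality filter kept 43971 barcodes of 4 libraries: 500 to 5000 genes, up to 40000 UMIs, and less than 10% of UMIs from mitochondrial genes. A barcode was assigned to a mouse by hashtag counts over a boundary set in the valley of each hashtag's distribution (39182 with 1 hashtag), and HTODemux of Seurat 5.3.0 was an alternative (30671). Doublets within a mouse were not called.

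UMIs of members were summed per mouse. Counts were tested with edgeR 4.0.16 (R 4.3.3; TMM factors, filterByExpr, quasi-likelihood F test, adjusted p under 0.05), after the pipeline was tested on simulated data. Shares were tested over mice by exact permutation (scipy 1.17.1). Alternatives were RLE factors, DESeq2 1.42.0, no filter on low counts, 10 or 25 histone UMIs, HTODemux, thinning to 4000 UMIs (at least 5 histone and at most 2 G2/M UMIs) and leaving out each mouse. Fits of all 20 mice, without the ceiling and without RT + αPD-L1 mouse 3 were chosen after seeing the data. The sums of 3 to 34 cells per mouse limit precision, and intervals cover counting error only. Mice are separate animals, but all mice of a treatment share 1 library.

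The members and gene lists were chosen with earlier results of these data known. Named genes were the rule genes and markers, the 12 largest medians in each direction on 1 side in all 20 mice, the 3 most abundant and 2 most different of each list, up to 10 called genes per direction and treatment comparison, up to 4 per list with the smallest p, and Mki67, Pcna, Mcm5, Tcf7, Tox, Pdcd1, Ly6a, Gzmb, Isg15 and Il7r. Further genes named as the few calls of a list or fit, and Cdk1, Ung and Gzma among the described levels, were picked after their values were seen. Promoters are from RefSeq (GRCm38.p6), with histone symbols matched by position. A few genes that the rule would name are not reported here.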

Additional observations from a re-analysis of the deposited data

Results flagged for a closer look

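In 9 of 52 groups of 5 mice that were examined, 1 mouse lay far from the other 4 by Dixon's test, where chance gives about 1 in 20. That rate is for independent, normally distributed values, whereas the same mice recur here and many values are sums of few cells. RT mouse 4 had 2.88% of its CD8 T cells in S phase, from 139 CD8 T cells. In S phase cells of RT, mouse 1 (3 cells) was highest for Isg15, at 57.6 CPM from 3 UMIs, and for Esco2, at 134 CPM from 7 UMIs. Mouse 4 of RT (4 cells) was highest for Tcf7, at 746 CPM. In αPD-L1 the highest mouse was at 116 CPM for Isg15. In Control the highest mouse was at 203 CPM for Ccl5. In RT + αPD-L1 mouse 3 was at 513 CPM for Bst2, 1553 CPM for Gzmb and 1060.4 CPM for Ccl5.

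With all 20 mice, 0 genes passed the edgeR test of whether the change from Control to RT + αPD-L1 differed between S phase cells and the remaining cells (337 at an unadjusted p under 0.05, 0 by DESeq2). In the mice with at least 10 S phase cells, 22 genes passed, but RT + αPD-L1 is mouse 3 alone there, so that the values are those of 1 mouse. In it Ccl5 had a difference of 1.74 on the log2 scale, Pdcd1 of -1.67 and Nrn1 of -2.30.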

How the results depend on the processing

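None of the share differences passed the exact permutation test under any alternative run, and their signs and sizes were not stable. RT against Control was -0.109 percentage points without the ceiling, -0.0555 thinned to 4000 UMIs and -0.106 to 0.519 when single mice were left out. αPD-L1 against Control was -0.0288 with at least 25 histone UMIs, -0.753 without the ceiling, -0.415 thinned and -0.00406 to 0.0978 when single mice were left out. RT + αPD-L1 against Control was 0.00697 with HTODemux and -0.0903 to 0.0208 with single mice left out (0.0208 when Control mouse 3 was dropped and 0.00171 when RT + αPD-L1 mouse 4 was). RT + αPD-L1 against RT was -0.551 to 0.0739 with single mice left out, and RT + αPD-L1 against αPD-L1 was 0.229 without the ceiling.

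Counts of called genes in mice with at least 10 S phase cells moved with most settings, and the cause was not tested. For RT against Control (11), DESeq2 gave 0, no filter 23 and at least 10 histone UMIs 0. For αPD-L1 against Control (3), RLE factors gave 12, DESeq2 1, no filter 22 and at least 10 histone UMIs 0. For RT + αPD-L1 against Control (65), DESeq2 gave 2, no filter 111 and at least 10 histone UMIs 31. Against RT (43) they gave 2, 92 and 12, with 86 under HTODemux, and against αPD-L1 (40) 1, 73 and 2, with 78 under HTODemux. For the difference between S phase and remaining cells (22), DESeq2 gave 1 and at least 10 histone UMIs 9. Without the ceiling these 6 counts were 0, 0, 139, 74, 88 and 0, but all 20 mice then had enough cells, so both the cells and the mice differ (16 residual degrees of freedom against 2). Leaving out single mice gave 0 to 39, 0 to 48, 0 to 110, 0 to 124, 0 to 77 and 2 to 28 calls for these 6 comparisons. The low ends came without αPD-L1 mouse 2 (mouse 3 gave 0, 1, 10, 4, 2 and 2), whereas leaving out Control mouse 1, which also leaves a lone mouse assumed to vary like the other groups, gave 34, 48, 103, 124, 77 and 28. With all 20 mice, RT + αPD-L1 against Control gave 10 calls with RLE factors, 5 with DESeq2, 100 without a filter, 27 with at least 10 and 8 with at least 25 histone UMIs, and 0 with HTODemux, and 1 to 24 when single mice were left out, the lowest when RT + αPD-L1 mouse 3 was dropped, 4 when Control mouse 1 was, and the highest when RT + αPD-L1 mouse 1 was. At least 20 cells per mouse and at least 25 histone UMIs could not be fitted in the planned design. No paired analysis was possible because hashtag numbers mark different mice in each library.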

Other observations

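Genes of other roles were set against the remaining CD8 T cells in the same way. Of 14 glycolysis genes, 1 was at least 2-fold higher in S phase cells by the median over 20 mice (Tpi1, triosephosphate isomerase, 169 against 70.7 CPM, log2 ratio 1.27), and the list's median was 0.57. Gapdh was at 3559.9 against 2046 CPM (0.85), Ldha, lactate dehydrogenase, at 988 against 646 CPM (0.66) and Pkm, pyruvate kinase, at 713 against 485 CPM (0.58). Of 18 genes of MHC class I presentation 0 were higher and 1, H2-Q4, lower (175 against 317 CPM, -1.01), with H2-K1 at 1774 against 2756 CPM (-0.63) and B2m at 1959 against 2416 CPM (-0.30). Of 10 p53 targets 3 were lower and 0 higher. Sesn1, which restrains growth signaling, was at 22.04 against 58.5 CPM (-1.37), and Trp53inp1 at 22.9 against 54.4 CPM (-1.22), while Trp53 itself was at 207 against 179 CPM (0.19).

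T cell receptor V genes were prominent among the calls in the mice with at least 10 S phase cells. In RT + αPD-L1 mouse 3, 34 S phase cells used 16 Trbv genes, and the most frequent, Trbv12-2, was the leading one in 4 cells (11.8%) against 6.40% of that mouse's remaining cells. In αPD-L1 mouse 2, Trbv29 was the leading one in 5 of 33 S phase cells (15.2%) against 6.88% of the remaining cells, and in RT mouse 5, Trbv5 in 4 of 21 (19.0%) against 4.32%. The leading gene was picked after its values were seen, so it is the highest of many by choice.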
